A study of Mus musculus with 36 samples.

Results

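Diatomaceous earth (DE), a powder made of the silica shells of diatoms, was set against Min-U-Sil 5, a milled crystalline silica, by the change each made in gene expression in Bhas 42 cells. Bhas 42 was made by putting a viral Ha-ras oncogene into mouse BALB/c 3T3 fibroblasts, and serves as a test line for the transformation of cells. All groups share that background. The quantity described is the effect of DE over its water control minus the effect of Min-U-Sil 5 over a water control of its own, and 16 of the 36 arrays of the series enter it, 4 in each group, chosen by their labelled treatment.

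The DE cells received 5 µg/cm2 of the powder and their control 2% water. The Min-U-Sil 5 cells received 20 µg/cm2 and their separate control also 2% water. In each group the treatment began on day 4 after seeding and lasted 48 h, and RNA was collected on day 6. The doses therefore differ between the materials, and material, dose and the day of scanning cannot be told apart when the effects are compared. The design names 4 independent experiments. Which array came from which is not labelled, so the p-values measure the spread between these samples, which may be technical.

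Respirable crystalline silica is known to damage the lysosomes of cells that take it up and to provoke inflammation and scarring in the lung. Diatomaceous earth in its natural form is largely amorphous silica. A proliferating fibroblast passes through S phase, in which E2F factors drive the genes of DNA replication, and through G2 and mitosis, whose genes are switched on later by the MuvB complex with B-Myb and FoxM1. Growth also needs ribosomes, and the genes that build them are known targets of Myc. Confluent fibroblasts instead make collagens and other matrix proteins.

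Expression is given throughout as a log2 level, the log2 of an array's processed signal minus the 75th percentile of that array, and an effect is a difference of mean log2 levels. The 32491 gene names tested had a probe well above background on at least 3 of the 4 arrays of a group, and 17868 of them have a gene symbol. A gene is said to have changed, risen or fallen where limma's adjusted p was under 0.05 across all of them, and genes beyond the naming rule were named for a count they belong to, after their values were seen. Between 58.1 and 76.2% of probes were well above background on an array and 0 were saturated. The correlation between arrays of a group was 0.971 to 0.993. The DE and water arrays lay on slides 1, 2 and 3, scanned on the first scan day, and the Min-U-Sil 5 arrays and their water on slides 4 and 5, scanned on the second. Slide 4 held Min-U-Sil 5 replicates 1, 2 and 4 with water replicates 2 and 3, and slide 5 held Min-U-Sil 5 replicate 3 with water replicates 1 and 4. The first principal component, with 54.3% of the variance, set the 5 arrays of slide 4 (88.5 to 132) apart from all DE arrays and their water (-115 to -32.6), treated and control alike, and the 3 arrays of slide 5 lay at -36, -11.5 and 20.1, the lowest of them within the range of the DE arrays and their water. The Min-U-Sil 5 water and the DE water differed in 7946 genes (24.5%), 6105 (18.8%) higher and 1841 (5.67%) lower in the Min-U-Sil 5 water. That count was 4468 without DE water replicate 1, and 4559 and 4632 without Min-U-Sil 5 water replicates 2 and 3. Each effect was taken within its own scan day.

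The difference between the effects was called for 3421 of 32491 genes (10.5%), of which 1600 (4.92%) had the higher value for DE and 1821 (5.6%) the lower value. In 1047 of them the difference was at least 2-fold, 509 higher and 538 lower. In 7867 genes (24.2%) the DE and Min-U-Sil 5 arrays, each minus the mean of its own water, did not overlap. DE itself changed 327 genes (1.01%), 181 up and 146 down, and Min-U-Sil 5 changed 8303 (25.6%), 3774 up and 4529 down. Of the 3421 genes with different effects, 3307 (96.7%) had the larger effect with Min-U-Sil 5 and 114 with DE. The DE count was 87 and 95 without water replicates 3 and 4, and 164 and 169 without DE replicates 1 and 3. When arrays were scaled on the median of the tested genes, the counts were 1002 for the difference and 27 for DE. The median of all genes was -0.02 for DE, 0.04 for Min-U-Sil 5 and -0.02 for the difference.

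Most of what DE changed, Min-U-Sil 5 changed too. The 257 genes called for both made up 78.6% of the DE calls and 3.1% of the Min-U-Sil 5 calls, and 251 of them moved the same way. Of all genes tested, 25.6% were called for Min-U-Sil 5 and 1.01% for DE. Min-U-Sil 5 changed 2064 genes at least 2-fold. Over these the median size of the effect was 0.31 for DE and 1.35 for Min-U-Sil 5. The sign was the same in both for 1665 of them (80.7%), against 63.2% of all genes tested. The effects share no control samples. Pearson's r between them was 0.349 across all genes and 0.587 across the Min-U-Sil 5 calls. These correlations are across genes, which are not independent, and are given as a description.

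**Figure D1:**
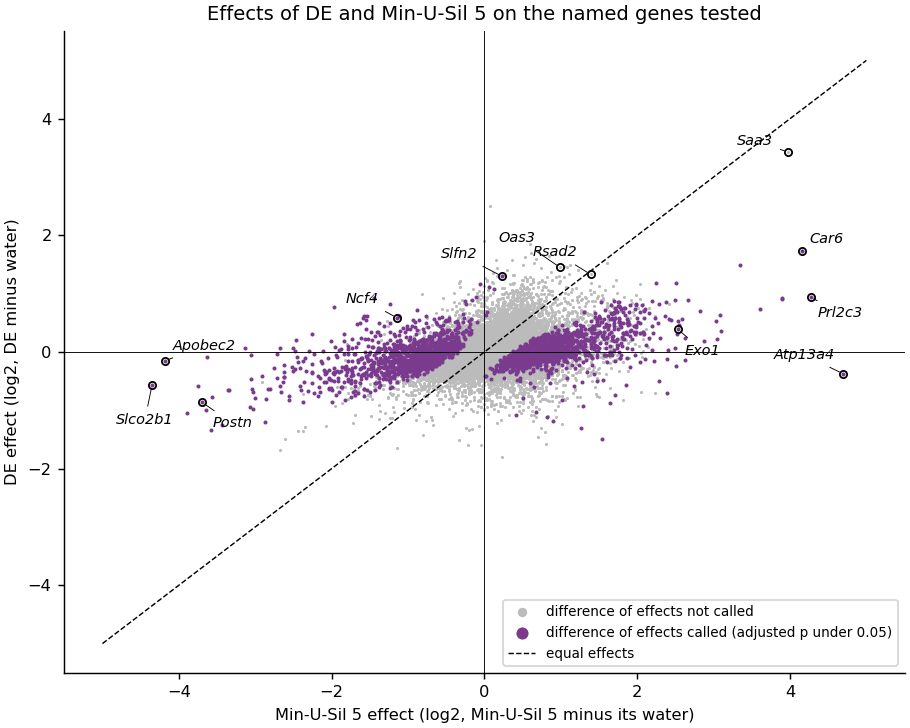
The effect of DE (log2, vertical axis) is plotted against that of Min-U-Sil 5 (log2, horizontal axis) for the 17868 genes with a symbol, with purple points where the difference was called and a dashed line where the effects are equal. Most purple points lie far from 0 along the horizontal axis and near 0 along the vertical one, while Saa3 lies close to the dashed line. Apobec2 and Atp13a4 are drawn at measured values that include arrays not well above background.

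The genes of DNA replication separated the materials. None of 48 measured genes of DNA replication and S phase passed limma's test with DE (13 had an unadjusted p under 0.05), and their median was 0.23. By contrast, 43 of 48 rose with Min-U-Sil 5 (11.6% of all genes rose), with a median of 1.55. The difference was called for 38 of 48, all lower for DE, with a median of -1.27, against 10.5% of all genes. The count was 25 under median scaling and 23 with the Min-U-Sil 5 effect from slide 5 alone, with medians of -1.29 and -1.22. In RNA from whole cultures, more cells in a phase and more RNA per cell cannot be told apart. The promoter window of Dtl is printed to show a regulatory motif that part of this list holds. It is 300 bases from RefSeq on GRCm38.p6, 250 bases before the annotated gene start and 50 after it (chr1:191575495-191575794, minus strand), in lower case with an E2F type motif, TTTNNCGC searched on both strands, in capitals.
Dtl promoter: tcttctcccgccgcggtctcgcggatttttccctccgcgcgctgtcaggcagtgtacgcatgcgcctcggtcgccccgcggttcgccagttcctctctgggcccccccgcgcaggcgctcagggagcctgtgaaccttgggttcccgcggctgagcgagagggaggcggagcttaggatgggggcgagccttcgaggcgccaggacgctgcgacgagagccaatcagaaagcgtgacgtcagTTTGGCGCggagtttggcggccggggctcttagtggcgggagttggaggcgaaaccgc
That motif occurred in 19 of 45 windows of the S phase genes (42.2%), in 3 of 45 windows of the G2 and mitosis genes (6.67%) and in 5.17% of all 32851 promoter windows. A match is a run of letters and was not tested as a binding site.

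Dtl, which marks replication licensing factors for destruction once replication has begun, measured -0.8, -1, -1.67 and -0.85 in DE cells, against -1.13, -1.33, -1.53 and -1.29 in water. It measured 1.71, 1.47, 1.47 and 1.33 in Min-U-Sil 5 cells, against -0.74, -0.7, -0.87 and -0.32 in their water. The DE and water arrays overlapped, and every Min-U-Sil 5 array lay above all the others. The DE effect was 0.24 ± 0.22 (SE, n = 4 arrays a group) and the Min-U-Sil 5 effect 2.15 ± 0.22, so that the difference was -1.91 ± 0.32 (limma adjusted p = 0.000129).

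Exo1, a nuclease of DNA repair and replication, had the largest difference of the list. It measured -0.11, -0.72, -0.94 and -0.48 in DE cells, against -0.8, -1.08, -1.2 and -0.72 in water. Min-U-Sil 5 cells had 1.96, 1.78, 1.94 and 1.82, against -0.79, -0.76, -0.78 and -0.28 in their water. All Min-U-Sil 5 arrays again stood above the rest, and the difference was -2.14 ± 0.32 (adjusted p = 4.06e-05). Orc1, a subunit of the origin recognition complex, differed by -1.89 ± 0.32 (0.32 for DE and 2.21 for Min-U-Sil 5). Ccne2, cyclin E2, had a difference of -2.03 ± 0.76 that missed the threshold (adjusted p = 0.0928), and it was not well above background on any DE, water or Min-U-Sil 5 water array.

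The genes of G2 and mitosis were raised in part by DE. DE raised 23 of 50 (0.557% of all genes rose with DE), with a list median of 0.77, and Min-U-Sil 5 raised 50 of 50 (11.6% of all genes rose), with a median of 1.59. For 20 of 50 the difference was called, all lower for DE (5.6% of all genes were lower), with a median of -0.84. With DE, Kif2c, a kinesin that takes microtubules apart at the centromere, rose by 1.13 ± 0.2 (adjusted p = 0.00298), against a Min-U-Sil 5 effect of 1.68, and the difference of -0.55 had a 95% interval of -1.13 to 0.03 (adjusted p = 0.281). Ube2c, which feeds the anaphase promoting complex, rose by 0.95 with DE and by 1.32 with Min-U-Sil 5, a difference of -0.37 with an interval of -0.88 to 0.13. Hmmr, a spindle protein, rose by 0.91 with DE and 1.28 with Min-U-Sil 5. Aurkb, the Aurora B kinase, rose by 0.95 with DE and 1.83 with Min-U-Sil 5, and its difference of -0.88 missed the threshold (adjusted p = 0.0717).

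The Ect2 promoter is shown because it holds both motifs that mark this group. It is 300 bases (GRCm38.p6, chr3:27153805-27154104, minus strand), with the cell cycle homology region TTTGAA, searched on both strands, and the CCAAT box in capitals.
Ect2 promoter: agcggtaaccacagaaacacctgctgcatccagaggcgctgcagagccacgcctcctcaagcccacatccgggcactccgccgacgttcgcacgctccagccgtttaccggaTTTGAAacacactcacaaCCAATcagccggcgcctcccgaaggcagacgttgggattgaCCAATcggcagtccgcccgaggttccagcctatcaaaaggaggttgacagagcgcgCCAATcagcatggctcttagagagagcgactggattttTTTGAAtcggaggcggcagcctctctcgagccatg
TTTGAA occurred in 34 of 45 windows of the G2 and mitosis genes (75.6%), in 13.3% of the S phase windows and in 17.9% of all windows. CCAAT occurred in 80% of the G2 and mitosis windows, 60% of the S phase windows and 37.4% of all. Neither was tested as a site.

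Ect2, the exchange factor that starts cytokinesis, measured 0.54, 0.15, -0.38 and 0.31 in DE cells, against -0.1, -0.23, -0.77 and -0.37 in water. It measured 1.98, 1.92, 2.1 and 1.86 in Min-U-Sil 5 cells, against 0.13, -0.06, -0.18 and 0.47 in their water. DE replicate 3 lay within the water arrays and the other DE arrays above them. The DE effect of 0.52 ± 0.21 missed the threshold (adjusted p = 0.325), the Min-U-Sil 5 effect was 1.88 ± 0.21, and the difference was -1.36 ± 0.3 (adjusted p = 0.00229). Sgo1, which guards cohesion at the centromere, differed by -1.39 ± 0.29 (adjusted p = 0.00146). Kif18b, another mitotic kinesin, had a larger difference of -1.59 ± 0.85 that missed the threshold (adjusted p = 0.303), with replicate 1 of the Min-U-Sil 5 water at -3.49 and its other 3 arrays between -2.28 and -1.73. Cenpf, a kinetochore protein, had -1.42 ± 0.56 (adjusted p = 0.118).

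The number of G2 and mitosis genes called for DE depended on single arrays and on the scaling. Leaving out water replicate 3 gave 6, water replicate 4 gave 8, DE replicate 1 gave 8 and water replicate 1 gave 37, with list medians of 0.68 to 0.89 in these fits. The number was 0 when arrays were scaled on the median of the tested genes, with a median of 0.75, and 36 with the slide as a block. Within slides 1, 2 and 3 the list median for DE was 1.23, 0.57 and 0.93. The difference was called for 15 to 22 members when any single array was left out, for 4 under median scaling and for 2 when the Min-U-Sil 5 effect came from slide 5 alone.

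**Figure D2:**
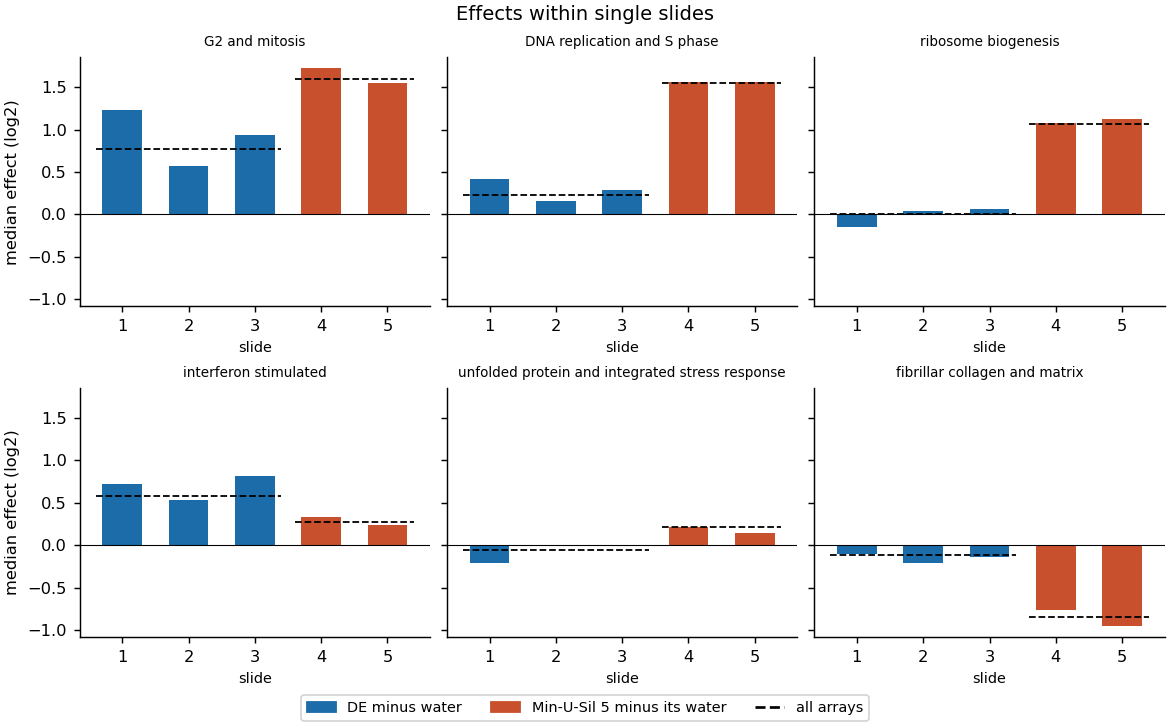
The median effect (log2, vertical axis) of 6 gene lists is drawn within each slide, for DE on slides 1, 2 and 3 and for Min-U-Sil 5 on slides 4 and 5, with the value over all arrays dashed. The S phase list had a median of 1.56 on both Min-U-Sil 5 slides, and the G2 and mitosis list was above 0 on all 5 slides.

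Ribosome biogenesis genes rose with Min-U-Sil 5. With DE, 0 of 30 passed limma's test, 0 had an unadjusted p under 0.05, and the median was 0. By contrast, 27 of 30 rose with Min-U-Sil 5 (11.6% of all genes rose), with a median of 1.06. Their effects differed in 26 of 30, all lower for DE (5.6% of all genes were lower), with a median of -1.1. The Nop2 promoter (300 bases, GRCm38.p6, chr6:125131633-125131932, plus strand) is shown with the E-box CACGTG, the sequence Myc is known to bind, in capitals.
Nop2 promoter: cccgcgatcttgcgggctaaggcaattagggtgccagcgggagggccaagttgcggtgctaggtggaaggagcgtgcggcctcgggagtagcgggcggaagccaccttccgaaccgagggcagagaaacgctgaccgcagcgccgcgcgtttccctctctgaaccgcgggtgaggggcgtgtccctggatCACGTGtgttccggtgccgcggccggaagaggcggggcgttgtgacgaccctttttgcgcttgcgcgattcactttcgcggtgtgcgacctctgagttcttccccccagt
CACGTG occurred in 6 of 29 windows of the ribosome biogenesis genes (20.7%) and in 7.15% of all windows. Nop2, which methylates ribosomal RNA, measured 2.85, 3.23, 3.46 and 3.19 in DE cells, against 3.11, 3.14, 3.2 and 3.11 in water, and 4.1, 4.27, 4.33 and 4.17 in Min-U-Sil 5 cells, against 3.16, 2.99, 2.94 and 3.16 in their water. The DE arrays spanned the water arrays. The difference was -1.11 ± 0.17 (adjusted p = 3.91e-05).

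Ddx21, a nucleolar RNA helicase, measured -1.19, -1.23, -1.45 and -1.49 in DE cells, against -1.37, -1.82, -1.9 and -1.66 in water. It measured -0.02, 0.08, 0.22 and -0.19 in Min-U-Sil 5 cells, against -1.98, -2.1, -2.21 and -1.9 in their water. The DE arrays overlapped their water and the Min-U-Sil 5 arrays lay above all others. The difference was -1.72 ± 0.25 (adjusted p = 3.05e-05). Nop56, a core protein of the small nucleolar particles that guide methylation, differed by -1.65 ± 0.22, and Rrp12, a factor of ribosome export, by -1.63 ± 0.28. Gar1, of the pseudouridine guiding particles, had -1.56 ± 0.65 and missed the threshold (adjusted p = 0.141). Myc itself measured 0.02, 0.47, 0.14 and 0.22 in DE cells, against -0.09, -0.03, -0.09 and 0.11 in water, and 2, 2.11, 2.12 and 1.9 in Min-U-Sil 5 cells, against -0.47, -0.35, -0.33 and 0.06 in their water. Its difference was -2.07 ± 0.3 (adjusted p = 2.48e-05).

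Of 27 measured AP-1 and immediate early genes, Myc and Fosl1 were the 2 whose effects differed, a share below the 10.5% of all genes. Fosl1, a Fos family partner in AP-1, had an effect of -0.16 with DE and 2.22 with Min-U-Sil 5, a difference of -2.38 ± 0.34 (adjusted p = 2.05e-05). Klf4 and Maff, the next in size, had differences of -0.92 and -0.81 that missed the threshold. With DE 0 of 27 passed limma's test (3 had an unadjusted p under 0.05), and Min-U-Sil 5 raised 6 and lowered 3, where 11.6% of all genes rose and 13.9% fell.

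Among 25 measured genes of ERK output and the EGF family, 8 differed, all lower for DE, where 5.6% of all genes were lower. Dusp4, a phosphatase that switches ERK off and is induced by it, rose with both, by 0.85 ± 0.18 with DE (adjusted p = 0.0158) and by 2.38 ± 0.18 with Min-U-Sil 5. Etv4, an Ets factor downstream of ERK, had an effect of 0.11 with DE and 1.4 with Min-U-Sil 5. The ligand genes Hbegf and Ereg had effects of 0.2 and -0.09 with DE and 1.1 and 0.67 with Min-U-Sil 5, and both differences were called.

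Some of the strongest responses to DE could not be told apart in size from those to Min-U-Sil 5. Saa3, an acute phase protein made outside the liver, was the gene that DE raised most among those changed by both. It measured -0.65, -0.74, 0.42 and -0.22 in DE cells, against -3.33, -4.25, -3.55 and -3.78 in water. It measured 0.4, 0.68, 0.78 and 0.38 in Min-U-Sil 5 cells, against -3.54, -3.35, -3.57 and -3.2 in their water. No treated array overlapped a water array. The effects were 3.43 ± 0.27 for DE (10.8-fold, adjusted p = 9.51e-09) and 3.97 ± 0.27 for Min-U-Sil 5 (15.7-fold), and the difference of -0.55 ± 0.39 had a 95% interval of -1.33 to 0.24 (adjusted p = 0.501). A difference within that interval was not resolved by 4 arrays a group.

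A few other genes of acute inflammation shared that pattern in part. Lcn2, which binds bacterial iron carriers, rose by 1.02 with DE and 1.06 with Min-U-Sil 5, with an interval for the difference of -0.66 to 0.58. Ccl8, a monocyte chemokine, rose by 1.37 ± 0.26 with DE and 0.87 with Min-U-Sil 5 (interval -0.27 to 1.26). Ccl7, a related chemokine, rose by 0.69 with DE and 1.3 with Min-U-Sil 5, and that difference was called (-0.61, adjusted p = 0.0445). Casp1 and Casp4, the inflammatory caspases, rose by 0.89 and 0.53 with DE and by 0.7 and 0.69 with Min-U-Sil 5. In the lists they come from, DE raised 2 of 18 acute phase genes, 2 of 22 NF-kB targets and chemokines and 2 of 16 inflammasome genes. With DE 0.557% of all genes rose, and the list medians were 0.11, 0.19 and 0.18. Min-U-Sil 5 raised 6, 7 and 5 of the members, where 11.6% of all genes rose. The difference was called for 4 of the acute phase genes (2 higher and 2 lower). It was called for 6 NF-kB targets and chemokines (4 higher and 2 lower) and 3 inflammasome genes (2 higher and 1 lower). Over all genes 4.92% were higher and 5.6% lower.

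The members that did differ were mostly changed by Min-U-Sil 5. Il6 and Ptgs2, an inflammatory cytokine and the inducible cyclooxygenase, had DE effects of 0.14 and 0.53 and rose with Min-U-Sil 5 by 1.27 and 1.88. Il33, an alarmin of stromal cells, had a DE effect of -0.61 that missed the threshold and fell with Min-U-Sil 5 by 2.01. Orm1, an acute phase glycoprotein, had an effect of -0.03 with DE and -1.7 with Min-U-Sil 5. Il18, an inflammasome substrate, had -0.37 with DE and -1.43 with Min-U-Sil 5.

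Among interferon stimulated genes the DE median, 0.58, was above that of Min-U-Sil 5, 0.27. DE raised 12 of 30 and lowered 1, where 0.557% of all genes rose and 0.449% fell with DE. Min-U-Sil 5 raised 11 of 30 and lowered 1, where 11.6% of all genes rose and 13.9% fell. The difference was called for 3 of 30, 2 higher and 1 lower, a share near the 10.5% of all genes. The Oas3 promoter (300 bases, GRCm38.p6, chr5:120777610-120777909, minus strand) is shown as that of the strongest DE response in the list among those holding the motif, with an interferon response element type motif, GAAA followed after any 2 bases by GAAA and searched on both strands, in capitals.
Oas3 promoter: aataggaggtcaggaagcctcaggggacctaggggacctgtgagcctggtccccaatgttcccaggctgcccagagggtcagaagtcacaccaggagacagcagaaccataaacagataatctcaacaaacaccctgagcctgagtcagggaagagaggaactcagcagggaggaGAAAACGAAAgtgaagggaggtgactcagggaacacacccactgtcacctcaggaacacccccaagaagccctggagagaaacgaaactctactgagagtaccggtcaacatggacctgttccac
The motif occurred in 14 of 26 windows of the interferon genes (53.8%) and in 3.44% of all windows.

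Oas3, an oligoadenylate synthetase that senses double-stranded RNA, measured -0.76, -0.65, -0.16 and -0.5 in DE cells, against -1.54, -1.6, -2.35 and -2.39 in water. It measured -0.47, 0.06, -0.73 and -0.6 in Min-U-Sil 5 cells, against -1.17, -1.34, -1.45 and -1.72 in their water. Treated and water arrays did not overlap within either pair. The effects were 1.45 ± 0.2 for DE and 0.99 ± 0.2 for Min-U-Sil 5, with an interval for the difference of -0.12 to 1.05 (adjusted p = 0.4).

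Rsad2, the antiviral protein viperin, measured -0.01, -0.22, 0.01 and 0.4 in DE cells, against -0.8, -0.87, -1.59 and -1.87 in water. It measured 0.38, 0.49, 0.68 and 0.51 in Min-U-Sil 5 cells, against -0.8, -0.68, -1.33 and -0.7 in their water. Its effects were 1.33 and 1.39, a difference of -0.06 with an interval of -0.66 to 0.53 (adjusted p = 0.954). Zbp1, a sensor of left-handed nucleic acid, rose by 0.99 with DE and 1.09 with Min-U-Sil 5. Ifi27 fell with both, by 0.74 with DE and by 0.51 with Min-U-Sil 5.

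In Oas2 and Oasl2 the effect of DE was the higher. Oasl2 measured 4.61, 4.44, 4.86 and 4.71 in DE cells, against 4.24, 4.36, 3.66 and 3.6 in water. It measured 3.93, 4.23, 4.14 and 4 in Min-U-Sil 5 cells, against 4.29, 3.92, 3.8 and 4.16 in their water. The Min-U-Sil 5 arrays overlapped their water and the DE arrays did not, and the difference was 0.65 ± 0.21 (adjusted p = 0.038). Oas2 differed by 0.86 ± 0.24 (adjusted p = 0.0174), with effects of 0.59 for DE and -0.27 for Min-U-Sil 5, neither of which passed the test. The DE effect on Oas2 passed with the slide as a block (0.67, adjusted p = 0.0431). Oas2 was also higher by 0.79 in the Min-U-Sil 5 water than in the DE water (adjusted p = 0.00198), and the median of that water difference was 0.44 over the list and 0.22 over all genes. Oasl1 went the other way, with effects of 0.82 and 1.99 and a difference of -1.17 ± 0.39 (adjusted p = 0.049, and 0.0817 with the slide as a block).

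In these genes the DE water arrays split by slide. Water replicates 1 and 2, both on slide 2, measured 4.24 and 4.36 for Oasl2, above replicates 3 and 4 on slides 3 and 1, with 3.66 and 3.6. The list median for DE was 0.72, 0.53 and 0.82 within slides 1, 2 and 3, and the part of the slide in the calls was not tested further. The number raised by DE was 4 of 30 without water replicate 3 and also 4 without replicate 4, 7 without DE replicate 3, 2 under median scaling and 19 with a block for slide. The call for Oasl2 was lost in 15 of 29 alternative settings and that for Oasl1 in 19.

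**Figure D3:**
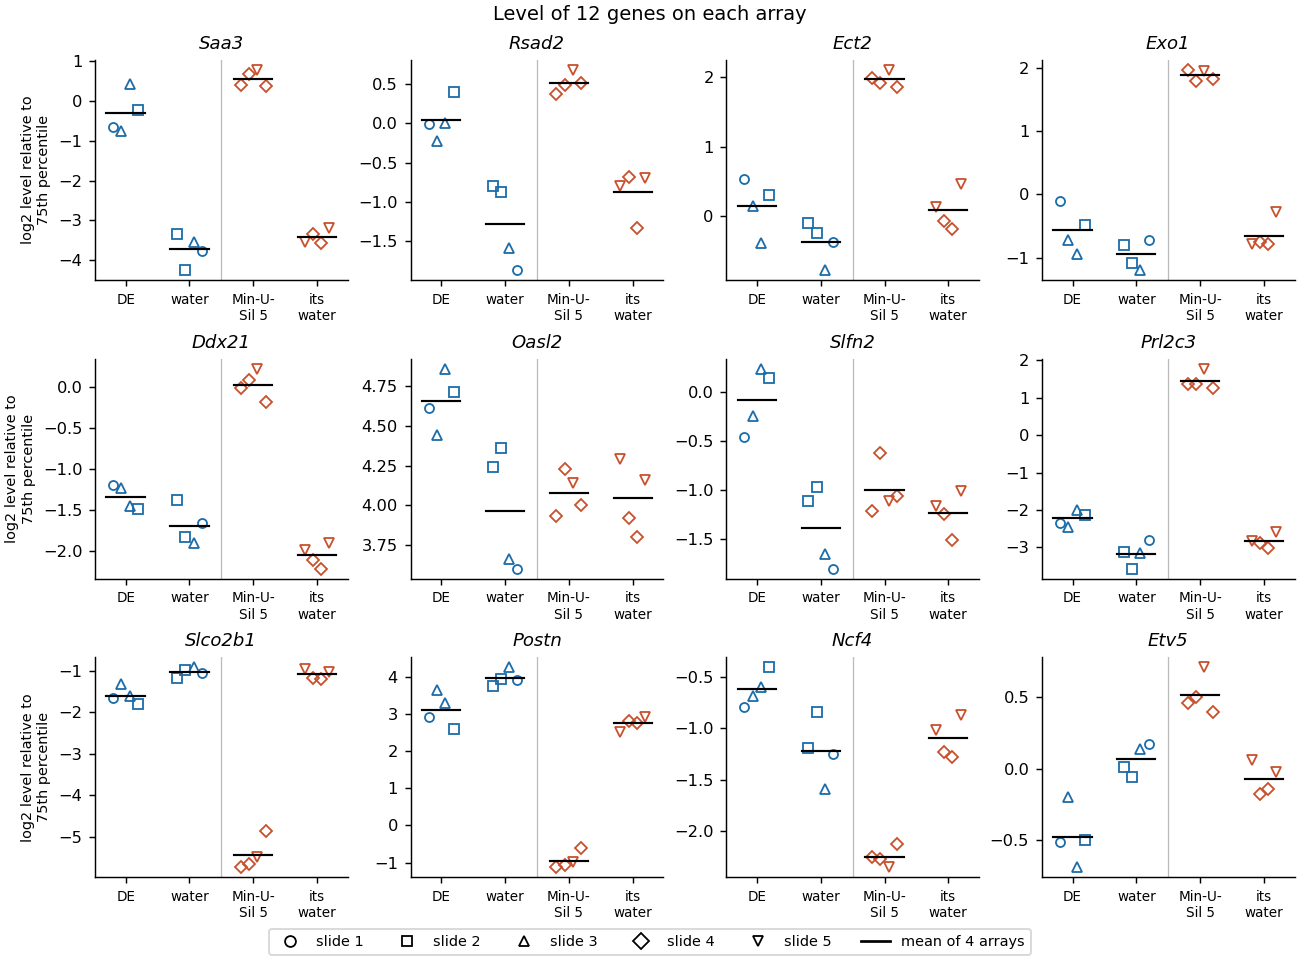
Each panel gives the log2 level (vertical axis) of a gene on the 16 arrays, by group from left to right DE, its water, Min-U-Sil 5 and its water, with the marker showing the slide and the line the mean of 4 arrays. Saa3 and Rsad2 stand above water in both pairs, Oasl2 and Slfn2 in the DE pair, and Exo1 and Ddx21 stand apart from all other groups in Min-U-Sil 5 cells.

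Few genes responded to DE and not to Min-U-Sil 5. Of 327 DE calls, 70 were not called for Min-U-Sil 5. The difference itself was called for 20 of those (28.6%, against 10.5% of all genes), 13 of which have a symbol. These 13 are named because they are few, after their values were seen. Slfn2, a schlafen protein induced by interferon, had the lowest adjusted p for DE among them. It measured -0.46, -0.24, 0.24 and 0.14 in DE cells, against -1.11, -0.97, -1.65 and -1.8 in water. It measured -1.21, -0.62, -1.11 and -1.06 in Min-U-Sil 5 cells, against -1.16, -1.24, -1.51 and -1.01 in their water. The DE arrays lay above all 12 others, and the difference was 1.08 ± 0.25 (adjusted p = 0.00379).

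Ctss, the lysosomal protease cathepsin S, measured -3.21, -2.89, -3.14 and -2.66 in DE cells, against -3.6, -3.87, -4.73 and -4.03 in water. It measured -2.95, -3.08, -3.41 and -2.66 in Min-U-Sil 5 cells, against -3.65, -2.75, -3 and -3.25 in their water. The 4 DE arrays lay within the range of the Min-U-Sil 5 arrays, and what differed was the water, lower by 0.9 in the DE pair. The difference of the effects was 0.95 ± 0.31 (adjusted p = 0.045), and it lost the threshold in 16 of 29 alternative settings.

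Tgtp2, an interferon-inducible GTPase, rose with DE by 0.63 and had an effect of 0.02 with Min-U-Sil 5. Gm5431 rose by 1.11 with DE, against 0.06 with Min-U-Sil 5. The other genes of this kind that rose with DE were Oasl2, Mtus2 (1.16), Pkp1 (0.94), a desmosome protein, Sim2 (0.89), a transcription factor, Apol11b (0.83) and Slc2a6 (0.51), a sugar transporter. In Mtus2, Apol11b, Sim2, Pkp1, Gm5431 and Tgtp2, as in Ctss, the Min-U-Sil 5 water lay above the DE water, by 0.59 to 1.14. The 3 that fell with DE were Triap1, an inhibitor of apoptosis downstream of p53, by 0.46, Bend3, a repressor, by 0.42, and Egln1, an oxygen sensing hydroxylase, by 0.41. The DE call was lost in 23 of 31 alternative settings for Slc2a6, 19 for Sim2 and 15 for Mtus2, and the difference in 18 of 29 for Mtus2 and 19 for Bend3.

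In 5 genes with a symbol, both effects were called and had opposite signs. Ncf4, the p40 subunit of the phagocyte NADPH oxidase, measured -0.8, -0.69, -0.6 and -0.41 in DE cells, against -1.19, -0.84, -1.59 and -1.25 in water. It measured -2.25, -2.27, -2.35 and -2.12 in Min-U-Sil 5 cells, against -1.02, -1.23, -1.28 and -0.87 in their water. It thus rose by 0.59 ± 0.15 with DE (adjusted p = 0.0391) and fell by 1.15 with Min-U-Sil 5, a difference of 1.74 ± 0.21 (adjusted p = 2.24e-06).

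Robo3, a receptor of axon guidance, rose by 0.45 with DE and fell by 0.95 with Min-U-Sil 5. Csprs rose by 0.47 and fell by 0.54, and Ass1, which makes argininosuccinate in the urea cycle, rose by 0.47 and fell by 0.34. Etv5, an Ets factor downstream of ERK, was the opposite case. It measured -0.51, -0.2, -0.69 and -0.5 in DE cells, against 0.01, -0.06, 0.14 and 0.17 in water, and 0.46, 0.5, 0.71 and 0.4 in Min-U-Sil 5 cells, against 0.06, -0.18, -0.14 and -0.02 in their water. It fell by 0.54 with DE and rose by 0.59 with Min-U-Sil 5. The Min-U-Sil 5 water lay above the DE water by 0.64 for Robo3 (limma adjusted p = 0.000324) and by 0.32 for Ass1 (adjusted p = 0.0392). For Ncf4, Csprs and Etv5 the waters did not differ past the threshold. The DE call of these 5 genes lost the threshold in 11 to 17 of 31 alternative settings, and the Min-U-Sil 5 call of Ass1 in 13 of 32.

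The proliferins changed with both materials and by far unequal amounts. These are secreted relatives of prolactin on chromosome 13 that growth factors are known to induce in 3T3 cells. Prl2c3 measured -2.34, -2.45, -1.99 and -2.12 in DE cells, against -3.13, -3.57, -3.15 and -2.8 in water. It measured 1.38, 1.38, 1.78 and 1.26 in Min-U-Sil 5 cells, against -2.84, -2.87, -3.01 and -2.58 in their water. It rose by 0.94 ± 0.2 with DE (1.92-fold, adjusted p = 0.0123) and by 4.27 ± 0.2 with Min-U-Sil 5 (19.4-fold), a difference of -3.34 ± 0.28 (adjusted p = 5.45e-09). Prl2c1 and Prl2c5 rose by 0.92 and 0.91 with DE and both by 3.89 with Min-U-Sil 5. The 3 genes are close copies whose probes may share transcripts, so their values are not independent.

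Car6, a secreted carbonic anhydrase, followed the same order. It measured -1.95, -1.74, -2.18 and -2.19 in DE cells, against -3.34, -3.41, -3.93 and -4.34 in water, and 0.48, 0.55, 0.71 and 0.5 in Min-U-Sil 5 cells, against -3.86, -3.52, -3.46 and -3.56 in their water. The effects were 1.74 ± 0.21 for DE and 4.16 ± 0.21 for Min-U-Sil 5, and they differed by -2.42 ± 0.3 (adjusted p = 4.03e-06). Among 8 measured carbonic anhydrases it was the one that was lower for DE, and Car11 was higher, by 1.08, with a DE effect of -0.05. Over all genes 5.6% were lower and 4.92% higher.

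Of the 251 genes that both changed in the same direction, 80 (31.9%) had a called difference, against 10.5% of all genes, and the next 3 are among them. Avil, an actin-binding protein of the villin family, rose by 1.5 with DE and 3.34 with Min-U-Sil 5. Mep1a, a membrane metalloprotease, rose by 1.19 and 2.24, and Akr1b7, an aldo-keto reductase, by 1.18 and 2.51, and all 3 differences were called. The genes lowered most by both were Dnali1, Rgs8, Ucma, Ackr4, Chadl and Ptger1. Ucma and Chadl, matrix proteins of cartilage, fell by 1.33 and 1.26 with DE. Chadl fell by 3.44 with Min-U-Sil 5, a difference of 2.18 ± 0.32. Ucma was well above background on 3 of 4 DE arrays and on no Min-U-Sil 5 array. That puts it at least 3.25-fold lower in Min-U-Sil 5 cells than in their water, and the difference at 0.37 or more. Its measured difference, which includes the dim arrays, was 2.25 ± 0.36 (adjusted p = 9.26e-05). For Rgs8, a regulator of G protein signalling, the difference of 1.02 had an interval of 0.21 to 1.84 and missed the threshold (adjusted p = 0.108), as did Ptger1, a prostaglandin E receptor, at 0.51 with an interval of -0.09 to 1.11. Rgs8 was well above background on 2 of 4 Min-U-Sil 5 arrays. Dnali1, a dynein light chain, and Ackr4, a scavenger of chemokines, were not above background with either material. They were at least 1.27-fold and at least 1.14-fold lower in DE cells than in water. In that water each was well above background on 3 of 4 arrays, and the dim array entered at its measured value. Dnali1 was at least 2.23-fold lower in Min-U-Sil 5 cells than in their water.

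Genes of the matrix fell with Min-U-Sil 5. Of 41 collagen and matrix genes, DE lowered 2 (0.449% of all genes fell with DE), with a list median of -0.11, and Min-U-Sil 5 lowered 31 (13.9% of all genes fell), with a median of -0.84. In 20 of 41 the effects differed, all higher for DE, where 4.92% of all genes were higher. Postn, the matrix protein periostin, measured 2.91, 3.66, 3.31 and 2.59 in DE cells, against 3.75, 3.95, 4.26 and 3.93 in water. It measured -1.13, -1.07, -0.99 and -0.61 in Min-U-Sil 5 cells, against 2.52, 2.81, 2.75 and 2.93 in their water. Every DE array lay below the water arrays, but the DE effect of -0.86 ± 0.23 missed the threshold (adjusted p = 0.0702, and 0.0204 with the slide as a block), and the Min-U-Sil 5 effect was -3.7 ± 0.23 (13-fold). The difference was 2.85 ± 0.33 (adjusted p = 1.68e-06).

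Sparcl1, a relative of the matrix protein SPARC, was one of the 2 lowered by DE. It measured 1.98, 2.51, 1.94 and 2.18 in DE cells, against 2.97, 3.37, 3.08 and 3.15 in water, and 0.15, 0, 0.04 and 0.35 in Min-U-Sil 5 cells, against 3.75, 3.68, 3.8 and 3.85 in their water. It fell by 0.99 ± 0.18 with DE (adjusted p = 0.00341) and by 3.64 ± 0.18 with Min-U-Sil 5. Col5a2, a collagen chain that starts fibrils, was the other, and fell by 0.72 with DE and by 1.22 with Min-U-Sil 5, with an interval for the difference of 0.11 to 0.89 (adjusted p = 0.103). Tnc, tenascin C, and Lum, the proteoglycan lumican, had DE effects of 0.08 and -0.65 and fell with Min-U-Sil 5 by 1.68 and 2.4. Col1a1 and Col3a1, the main fibrillar collagens, had DE effects of -0.18 and -0.3 and fell with Min-U-Sil 5 by 1.21 and 1.39.

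Of 22 metalloproteinase and plasminogen genes, which remodel matrix, Min-U-Sil 5 lowered 13 (13.9% of all genes fell) and raised 2. The difference was called for 11 of the 22, 10 higher for DE and 1 lower (4.92% and 5.6% of all genes). With DE 0 of 22 passed limma's test (3 had an unadjusted p under 0.05). Mmp9, gelatinase B, measured 1.82, 1.82, 2.11 and 1.55 in DE cells, against 1.95, 2.16, 1.82 and 1.69 in water, and -1.24, -0.86, -1.03 and -0.85 in Min-U-Sil 5 cells, against 1.64, 1.31, 1.28 and 1.58 in their water. The DE arrays overlapped water, and the difference was 2.37 ± 0.27 (adjusted p = 1.64e-06). Mmp3, stromelysin 1, and Mmp13, collagenase 3, had DE effects of -0.16 and -0.1 and fell with Min-U-Sil 5 by 2.14 and 1.6. Timp4, an inhibitor of these enzymes, had -0.69 with DE and fell by 2.66 with Min-U-Sil 5. Plaur, the urokinase receptor, was the member that was lower for DE, by 0.62. With the Min-U-Sil 5 effect from slide 5 alone, 7 of the 22 differed.

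The genes of largest positive difference were ones that Min-U-Sil 5 lowered. Apobec2, a relative of the cytidine deaminases, measured -3.71, -2.91, -4.03 and -3.6 in DE cells, against -3.32, -3.26, -3.55 and -3.5 in water. It measured -7.71, -7.66, -7.49 and -7.38 in Min-U-Sil 5 cells, against -3.19, -3.35, -3.56 and -3.4 in their water. No Min-U-Sil 5 array was well above background. That puts Apobec2 at least 5.51-fold lower there and the difference of effects at 2.31 or more on the log2 scale. The measured difference, which includes the dim arrays, was 4.03 ± 0.25 (adjusted p = 2.4e-11). Slco2b1, an organic anion transporter, measured -1.66, -1.32, -1.62 and -1.81 in DE cells, against -1.19, -0.98, -0.92 and -1.06 in water, and -5.74, -5.67, -5.49 and -4.86 in Min-U-Sil 5 cells, against -0.95, -1.18, -1.2 and -1.04 in their water. Its difference was 3.78 ± 0.36, and the DE effect of -0.56 missed the threshold (adjusted p = 0.414).

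Several enzymes stood among them. Ces1d, a carboxylesterase, Ptgds, a prostaglandin D synthase, Ggt5, a glutathione cleaving enzyme, and Anpep, aminopeptidase N, differed by 3.21, 3.01, 2.81 and 2.69. Of the 4 Min-U-Sil 5 arrays, Ggt5 was well above background on 3 and Anpep on 2. Spib, an Ets factor of blood cells, differed by 3.54. Cacna1g, a calcium channel, fell with both, by 0.65 with DE and by 3.36 with Min-U-Sil 5. S100b, a calcium binding protein, and Pde1b, a phosphodiesterase, differed by 2.69 and 2.68. Epb41l4b was not well above background on any Min-U-Sil 5 array, at least 3.81-fold below water, and its difference was at least 1.99.

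At the other end, several of the genes of largest negative difference were dim outside the Min-U-Sil 5 cells. Atp13a4, a P-type ATPase, measured -7.12, -7.82, -7.34 and -7.71 in DE cells, against -6.26, -6.78, -7.87 and -7.62 in water, none of them well above background. It measured -3.05, -3.17, -2.9 and -3.51 in Min-U-Sil 5 cells, at least 5.37-fold above their water. Il1rn, the interleukin 1 receptor antagonist, Serpinb9g, a serpin, Klra2, of the Ly49 receptor family, and Riox1, a ribosomal oxygenase, likewise rose over background with Min-U-Sil 5 alone of the 4 groups, by at least 1.7, 1.72, 2.07 and 1.32-fold. For Riox1 this held on 3 of 4 arrays, all on slide 4, while replicate 3 on slide 5 measured -7.41 and was not well above background. Nlrp2, a NOD-like receptor, had an effect of 0.19 with DE and 2.88 with Min-U-Sil 5. Maats1 and Lce1g had differences of -2.88 and -2.77. H2ac21, a histone, had -2.59, with a DE effect of -1.31 (adjusted p = 0.083) and a Min-U-Sil 5 effect of 1.27. It was well above background on 1 of 4 DE arrays, 3 of 4 Min-U-Sil 5 arrays and 1 of 4 of their water. Bpifb9b and Cers3, a ceramide synthase, had measured differences of -3.04 and -2.52, which include dim arrays. Neither was well above background on any DE array. Bpifb9b was so on 2 of 4 DE water arrays and 2 of 4 of the Min-U-Sil 5 water, and Cers3 on 1 and 3 of 4. The Min-U-Sil 5 effect on Bpifb9b (adjusted p = 0.0457) missed the threshold with the slide as a block (adjusted p = 0.0969).

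Stress pathways separated the materials by what Min-U-Sil 5 raised. Of 36 genes of the unfolded protein and integrated stress response, 0 passed limma's test with DE (6 had an unadjusted p under 0.05). With Min-U-Sil 5, 15 rose, where 11.6% of all genes rose. The effects of 12 differed, all lower for DE (5 with the Min-U-Sil 5 effect from slide 5 alone), where 5.6% of all genes were lower. Fgf21, a hormone induced by Atf4, measured -5.08, -5.15, -7.32 and -5.18 in DE cells, against -5.19, -6.51, -5.55 and -6.91 in water. It measured -3.86, -3.56, -3.47 and -3.99 in Min-U-Sil 5 cells, at least 3.64-fold above their water, where no array was well above background. Trib3, which restrains Atf4, had an effect of 0 with DE and 1.66 with Min-U-Sil 5. Psat1 and Mthfd2, of serine and mitochondrial folate metabolism, had 0.15 and 0.12 with DE and 1.79 and 1.74 with Min-U-Sil 5. Asns, asparagine synthetase, had 0.02 and 1.18, and Atf4 itself -0.11 and 0.81.

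Of 40 measured NRF2 target genes, 0 passed limma's test with DE (7 had an unadjusted p under 0.05). Min-U-Sil 5 raised 16 and lowered 4, where 11.6% of all genes rose and 13.9% fell. The difference was called for 15, 13 lower for DE and 2 higher (9 in all under median scaling). Over all genes 5.6% were lower and 4.92% higher. The share lowered by Min-U-Sil 5 was below that of all genes, and the share higher for DE was near it. Slc7a11, the cystine importer, measured -3.56, -3.39, -3.04 and -3.56 in DE cells, against -3.49, -4.27, -4.48 and -4.16 in water, and -1.41, -2.24, -1.86 and -1.68 in Min-U-Sil 5 cells, against -5.34, -3.73, -4.76 and -4.65 in their water. Its DE effect of 0.71 missed the threshold (adjusted p = 0.434), and the difference was -2.11 ± 0.47 (adjusted p = 0.00266). Gclc, which makes the first step of glutathione synthesis, had -0.05 with DE and 1.67 with Min-U-Sil 5, and Gsta2 and Gsta3, glutathione transferases, had 0.56 and 0.61 with DE and 2.58 and 2.37 with Min-U-Sil 5. Of 20 heat shock genes, 5 were lower for DE, among them Hsph1 (-1.23) and Hspd1 (-0.88), and 2 higher, among them Cryab (0.86). The shares of all genes were 5.6% lower and 4.92% higher. Of 9 metallothionein and zinc genes, 0 differences passed limma's test (2 had an unadjusted p under 0.05), and the differences of Mt1 and Mt2 were 0.36 ± 0.2 and -0.36 ± 0.14.

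Of 39 lysosome and phagosome genes, 5 differed, all higher for DE. The share that differed in either direction was near the 10.5% of all genes, while 4.92% of all genes were higher. The 5 were Ctss and also Man2b1 (0.74), Neu1 (0.73), Lamp2 (0.63) and Npc2 (0.42), which Min-U-Sil 5 lowered. Gpnmb, a lysosomal glycoprotein, rose with both, by 1.01 with DE and 1.27 with Min-U-Sil 5 (interval for the difference -0.83 to 0.32). Scarb2, a lysosomal membrane receptor, rose by 0.55 with each, with an interval for the difference of -0.25 to 0.25. Of 17 scavenger and uptake receptors 6 were higher for DE (4.92% of all genes were higher), among them Mertk, which binds dying cells. Mertk had a DE effect of 0.02 and was not well above background in Min-U-Sil 5 cells, at least 4.01-fold below their water, a difference of at least 2.03. Of 29 growth factors and cell cycle inhibitors 10 were higher for DE and 1, Fgf21, lower (4.92% and 5.6% of all genes). The total called was 3 under median scaling and 5 with slide 5 alone. Igf2, an insulin-like growth factor, had -0.19 with DE and fell by 2.12 with Min-U-Sil 5. Cdkn1b and Cdkn2c, inhibitors of cyclin-dependent kinases, had 0.03 and 0.21 with DE and -0.58 and -0.51 with Min-U-Sil 5.

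The remaining lists were split in direction or held few calls, against 10.5% of all genes (4.92% higher and 5.6% lower). The difference was called for 7 of 25 TGF-beta and BMP genes (6 higher, led by Ltbp2 at 1.14, and 1 lower, Skil at -1.01), and 11 of 34 hypoxia and glycolysis genes (6 higher, led by Ddit4 at 1.46, and 5 lower, led by Higd1a at -1.2). It was called for 7 of 29 p53 targets (5 higher, led by Sesn1 at 0.97, and 2 lower, led by Gadd45a at -1.21), 2 of 34 sterol and fatty acid genes (Tm7sf2 and Scd1, both higher) and 2 of 27 contractile genes (Des higher and Ankrd1 lower), and the last pair of shares lay below that of all genes.

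**Figure D4:**
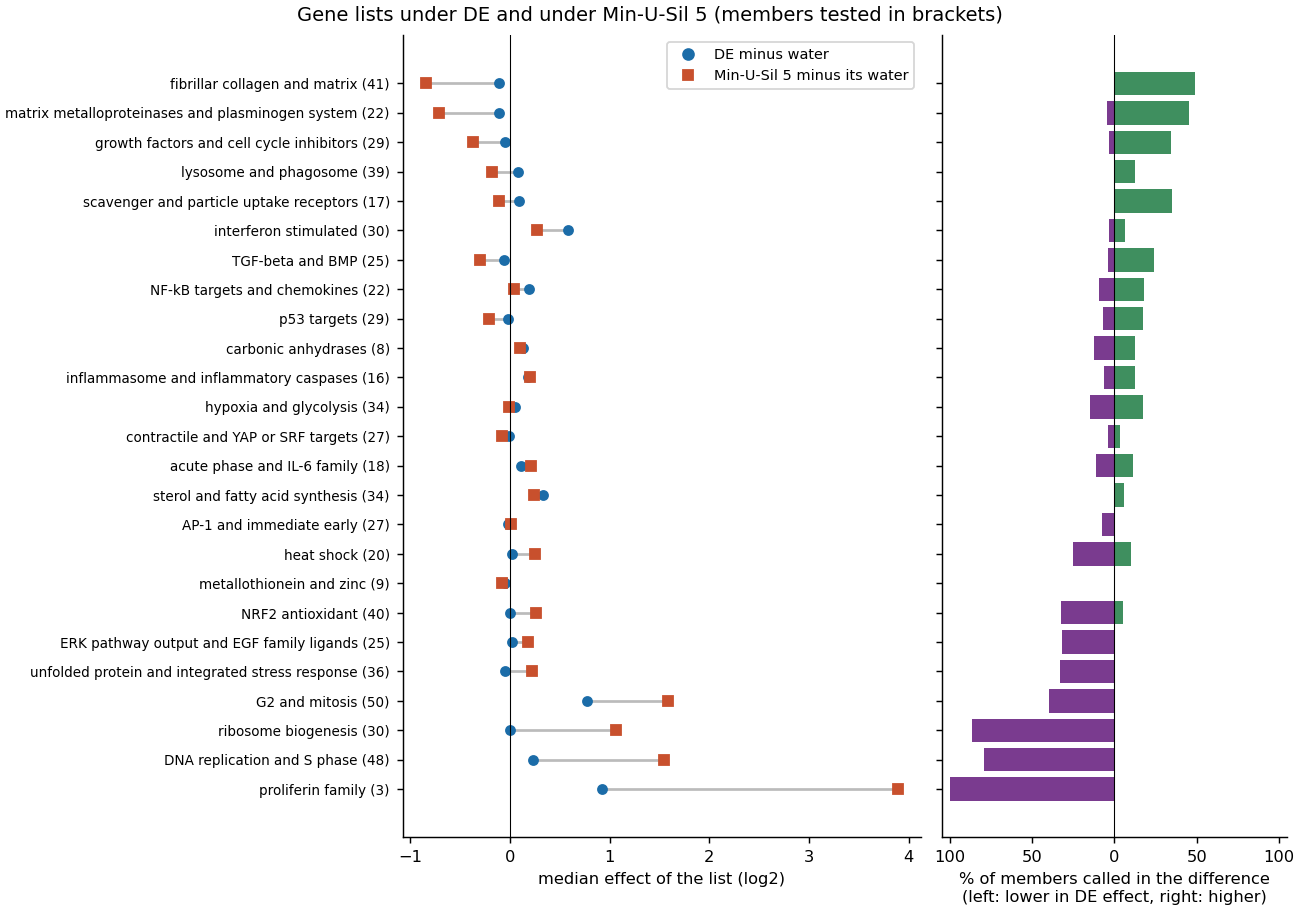
On the left, the median effect (log2) of 25 gene lists is given for DE (circles) and Min-U-Sil 5 (squares), and on the right the percent of measured members whose difference was called, lower for DE to the left of 0 and higher to the right. The circles of S phase (0.23) and ribosome biogenesis (0) stay near 0 while their squares lie at 1.55 and 1.06.

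The cells carried the markers of the labelled type. Of 14 fibroblast markers 13 were well above background on all 16 arrays, and their summed level, in units of the array's 75th percentile, was 920 to 1010 in DE cells, against 911 to 1030 in water, and 728 to 787 in Min-U-Sil 5 cells, against 901 to 1280 in their water. Of 12 macrophage markers 6 were above background on all 16 arrays and 3 on none. Their summed level was 21.2 to 29.5 in DE cells, against 19.9 to 28.5 in water, and 13.3 to 17 in Min-U-Sil 5 cells, against 14.5 to 21.4 in their water. Ptprc, the common leukocyte antigen, was well above background on 0 of 16 arrays, and Adgre1, the F4/80 antigen, on 6. Csf1r, also a defining macrophage gene, was well above background on all 16. Of 7 macrophage markers tested, 2 had the higher value for DE, Aif1 by 1.73 and Lyz2 by 1.03, where 4.92% of all genes were higher. DE changed 0 of the 7 and Min-U-Sil 5 lowered 2. The value was also higher for DE in 5 of 14 fibroblast, 1 of 6 epithelial, 1 of 6 endothelial and 0 of 6 adipocyte markers tested. Of the defining epithelial genes, Epcam was above background on 0 arrays and Cdh1 on 1. Pecam1, an endothelial gene, was above background on all 16, and Cdh5 on 12, none of them a Min-U-Sil 5 array. Of the defining genes of fat cells, Adipoq was above background on 0 arrays and Plin1 on 15. In all, 3 of 8 adipocyte markers were above background on all 16. The part of any such cells in the differences was not tested.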

How the data were processed

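RNA of each sample was hybridised to a 1-colour Agilent mouse array. The intensity of each spot was taken from the deposited scanner output, in which, per the file headers, Agilent Feature Extraction 11.0.1.1 had subtracted background and detrended the processed signal. Background flags are, per the file headers, 0 or 1. The deposited value table holds log2 values that the authors centred per probe, on a scale not given in the sources used here, and it was used only as an alternative. The scanner files of Min-U-Sil 5 replicates 1, 2 and 3 matched its columns of replicates 2, 3 and 1 (r = 0.9998 to 0.9999).

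The log2 of the processed signal minus the array's 75th percentile was computed over the spots that are not controls. Control spots and outlier flags were left out, spots of a probe were averaged, and 40678 probes above background were reduced to 32491 names by the brightest probe. Limma 3.58.1 (lmFit and eBayes in R 4.3.3) fitted the means of 9 groups over 36 arrays, with Benjamini-Hochberg adjustment over all names and 95% intervals unadjusted. Bounds given as "at least" set the bright group's mean against the background floor of the dim group. Slides and scan days come from the file headers. Replicate numbers were not shown to pair the samples and were not used as pairs in the main fit.

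Members and lists were chosen with earlier results of these data known. Of 762 list entries 705 were tested. Genes were named by rules: the 15 largest differences each way among genes called with and without the slide as a block and with arrays that did not overlap, those of opposite sign, the 6 largest shared effects each way, and up to 4 members of each list. Further names were added after their values were seen, and a few genes that the rules chose are not reported here. Promoters are RefSeq windows (GRCm38.p6), one each for the member with the largest called effect that held the motif and was above background on all 16 arrays. Alternatives covered background correction, scaling, the filter, probe summary, slide, scan day, replicate number and each array left out.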

Additional observations from a re-analysis of the deposited data

Results flagged for a closer look

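Among 60 named genes, 16 of 240 gene and group pairs held an array far from the other 3 of its group by Dixon's test, where chance gives about 1 in 20. In the Min-U-Sil 5 water, replicate 1 stood apart for Cacna1g (0.41), Akr1b7 (-3.72) and Mtus2 (-4.55), replicate 2 for Pde1b (2.24, against -0.23 to 0.18), Nlrp2 (-4.59) and Mep1a (-3.82), and replicate 3 for Csprs (4.39). In Min-U-Sil 5 cells, replicate 1 stood apart for Csprs (3.97), replicate 2 for Cacna1g (-3.1), replicate 3 for Ptger1 (-5.16) and replicate 4 for Serpinb9g (-5.19). In DE cells, replicate 3 stood apart for Fgf21 (-7.32, against -5.18 to -5.08) and replicate 4 for Triap1 (2.41). In the DE water, replicate 2 stood apart for Nlrp2 (-4.78) and Csprs (4.82) and replicate 3 for Riox1 (-6.22). All values are log2 levels.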

How the results depend on the processing

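The number of genes called was within 1.5 times the reported one for the difference and for Min-U-Sil 5 under most settings, while that for DE, 327, was more fragile. Scaling on the median gave 1002 for the difference and 27 for DE. DE had 209 without the filter, 171 in a fit of the 16 arrays, 570 with array weights and 51, 49 and 61 within slides 1, 2 and 3. Within slide 5 the Min-U-Sil 5 count was 3216. With the Min-U-Sil 5 effect taken from slide 5 alone, a choice made after seeing the data, it was 3587 and the difference 1393. The count between the waters, 7946, was 78 with a block for slide and 81 with one for scan day. The replicate number as a block gave 34 for DE and 4360 for the waters, and the numbers were not shown to pair the samples (correlations of deviations -0.602 to 0.45). Leaving out each array gave 2890 to 3335 for the difference, 87 to 367 for DE, 7055 to 8480 for Min-U-Sil 5 and 4468 to 9449 for the waters. The lowest DE counts, 87 and 95, were without water replicates 3 and 4, followed by 164 and 169 without DE replicates 1 and 3. The lowest for the waters were 4468, 4559 and 4632, without water replicate 1 and without Min-U-Sil 5 water replicates 2 and 3. The causes were not tested. Of 262 results for single genes and lists, 154 kept their call, or a list median within its spread, in every setting run. The threshold was lost in at least 1 setting by 87 and gained by 13, and 8 list medians moved. Among genes called in the main fit 0 reversed. A change of sign was not counted for other genes or for list medians. The metallothionein and zinc median of -0.18 was 0.22 with slide 5 alone and 0.12 without water replicate 3.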
